A study of Mus musculus with 89 samples.

Results

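RNA-seq of mouse embryonic stem cells (ESCs) was used to follow 31 genes of cholesterol synthesis and transport across 8 groups of cells, which differed in the orphan nuclear receptors Esrrb and Nr5a2 and in the culture medium. The 31 genes were named by symbol for their part in the pathway, by a rule that uses no measured value, though with earlier results of these data known, among 54146 genes with a row in the table. They comprise 7 enzymes of the mevalonate steps, 11 enzymes that take farnesyl units through squalene and lanosterol to cholesterol, 5 genes of sterol sensing and 8 genes of transport, storage and hydrolysis. Every one of the 31 had enough counts to be tested in every comparison.

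All cells were of the EKOiE line, in which both endogenous Esrrb alleles are inactivated and a doxycycline (Dox)-inducible Esrrb transgene replaces them, so that the controls carry these alterations too. EKOiE cells kept in 1 µg/ml Dox are called +E+N, and EKOiE cells 2 days after Dox was withdrawn are called −E. EKOiE NrKO cells, in which Nr5a2 was also disrupted, are called −N with Dox and −E−N 2 days after its withdrawal. The study's methods show sequencing of 1 NrKO clone (the labels name none), so loss of Nr5a2 and properties of that line cannot be told apart. Each state was grown in FCS/LIF (10% serum with the cytokine LIF, 2 libraries per state, 8 in all) and in 2i/LIF (serum-free N2B27 with insulin, albumin, LIF, the MEK inhibitor PD0325901 and the GSK3 inhibitor CHIR99021, 3 libraries per state, 12 in all).

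Cells build cholesterol from acetyl-CoA. When membrane sterol is low, Scap carries the membrane-bound transcription factors SREBP-1 and SREBP-2 (genes Srebf1 and Srebf2) from the endoplasmic reticulum to the Golgi, where they are cut and released to activate genes of synthesis and uptake. When sterol is high, Insig proteins hold Scap back, and oxysterols activate the LXR receptors, which raise the exporters Abca1 and Abcg1. Surplus cholesterol is esterified by Soat1 for storage. Esters that enter lysosomes are hydrolysed by Lipa, and the cholesterol released is exported from there by Npc1 and Npc2.

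Each FCS/LIF library held 36514172 to 45443379 counts, and each 2i/LIF library 26653035 to 32526534. The Esrrb row, to which the transgene and any transcript left from the disrupted alleles can both contribute, was at 271 to 352 CPM (counts scaled to library size) in +E+N, 65.1 to 74.2 in −E, 219 to 259 in −N and 28.9 to 31.3 in −E−N of FCS/LIF. In 2i/LIF it was at 515 to 608 CPM in +E+N, 380 to 441 in −E, 415 to 530 in −N and 104 to 171 in −E−N. The row was thus still high in 2i/LIF −E, where it overlapped with −N. It does not measure the protein, and the study's ChIP-seq found Esrrb binding lost in 2i/LIF 2 days after Dox withdrawal. The Nr5a2 row, whose total also holds transcripts outside the small deleted stretch and so does not check the labels, was at 36.1 to 39.8 CPM in +E+N and 25.5 to 27.1 CPM in −N in FCS/LIF, and at 61.8 to 80.2 and 63.9 to 78.4 CPM in 2i/LIF. All 6 markers of ESCs (Pou5f1, Sox2, Nanog, Zfp42, Sall4, Dppa4) were detected in every group, and their summed level was lower in −E−N (1397 to 1561 CPM against 2684 to 2970 in +E+N in FCS/LIF, and 1568 to 2028 against 3105 to 3310 in 2i/LIF). Primitive and visceral endoderm markers (12 genes, Ttr at 0 in all groups but FCS/LIF −E−N) summed to 158 to 211 CPM in +E+N and 370 to 485 in −E−N in FCS/LIF, and to 10.1 to 13.7 and 18.1 to 21.0 in 2i/LIF. These sums do not speak for every gene listed. In −E−N against +E+N, 5 of 10 tested endoderm markers had estimates above 0 and 5 below in FCS/LIF. In 2i/LIF 4 of 6 tested were above 0 and 2 below. Trophectoderm markers (7 genes, none at 0) went from 140 to 163 CPM up to 346 to 454 in FCS/LIF and from 103 to 118 up to 160 to 226 in 2i/LIF. In bulk RNA, fewer cells of a type and less RNA per cell cannot be told apart.

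The promoter strands of 4 members are shown. Soat1 had the largest fall between media and the largest rise on double loss in 2i/LIF. Ebp and Msmo1 rose strongly in 2i/LIF, and Hmgcs1 alone held the sterol element searched. Scarb1, with the largest rise between media, and Abcg1, with the largest fall on double loss in 2i/LIF, had no promoter entry. Ebp, Msmo1 and Hmgcs1 were picked after their values and matches had been seen. Each is the 250 bases before the RefSeq start (GRCm38.p6, which is mm10), 5′ to 3′ on the strand of the gene, with motif matches in capitals. Soat1 lies at chr1:156474329-156474578 (minus strand), Ebp at chrX:8193513-8193762 (minus), Msmo1 at chr8:64733579-64733828 (minus) and Hmgcs1 at chr13:119690101-119690350 (plus). The reference annotation of genes places the 5′ end of Msmo1 at 64733792. Most of the Msmo1 window thus lies within the gene by that annotation, and before the start only by the RefSeq one.
Soat1: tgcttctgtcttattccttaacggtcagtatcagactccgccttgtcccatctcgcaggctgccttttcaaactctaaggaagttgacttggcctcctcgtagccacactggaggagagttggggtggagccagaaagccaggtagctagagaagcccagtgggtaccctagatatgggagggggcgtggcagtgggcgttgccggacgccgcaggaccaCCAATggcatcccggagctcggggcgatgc
Ebp: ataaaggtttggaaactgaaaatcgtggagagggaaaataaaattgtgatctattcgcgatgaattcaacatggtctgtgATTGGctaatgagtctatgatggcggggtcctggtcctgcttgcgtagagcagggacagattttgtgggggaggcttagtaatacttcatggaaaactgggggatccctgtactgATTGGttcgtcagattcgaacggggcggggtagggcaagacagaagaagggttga
Msmo1: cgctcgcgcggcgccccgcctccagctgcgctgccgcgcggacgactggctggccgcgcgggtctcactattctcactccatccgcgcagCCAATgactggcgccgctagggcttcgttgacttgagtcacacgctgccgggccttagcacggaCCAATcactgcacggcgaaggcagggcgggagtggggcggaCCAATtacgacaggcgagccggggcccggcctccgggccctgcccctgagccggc
Hmgcs1: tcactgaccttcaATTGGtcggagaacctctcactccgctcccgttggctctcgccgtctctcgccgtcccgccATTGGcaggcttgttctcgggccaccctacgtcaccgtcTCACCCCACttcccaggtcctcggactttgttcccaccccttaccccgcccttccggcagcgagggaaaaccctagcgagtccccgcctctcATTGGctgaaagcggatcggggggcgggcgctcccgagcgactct

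The capitals mark CCAAT or its complement ATTGG, the box bound by NF-Y, a common partner of SREBP, and in Hmgcs1 also TCACNCCAC, a sterol regulatory element core. Both strands were searched for these and for TCAAGGTCA and TCAAGGCCA, the forms preferred by Esrrb and Nr5a2. The promoter table held 24 of the 31 members (all but Fdps, Fdft1, Sqle, Scarb1, Abcg1, Npc1 and Stard4), in 32 entries that all equalled the genome sequence. CCAAT was in 22 of the 32 member entries (68.8%), covering 21 of 24 members and 14 of the 15 synthesis enzymes present, against 35.6% of 14646 entries of tested genes. TCACNCCAC was in 1 member entry (3.12%, against 1.04% of tested genes), and the Esrrb and Nr5a2 forms were in none of the 32 member entries, against 0.253% and 0.362% of those of tested genes. These matches describe letters within a short window, the motifs do not overlap each other in the strands shown, and no binding was measured here.

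The first comparison asked how far the medium sets the level of these genes when both receptors are present. In 2i/LIF, 21 of the 31 genes were higher than in FCS/LIF and 3 were lower (quasi-likelihood test of edgeR, Benjamini-Hochberg adjusted p under 0.01 and a fold above 1.5, which also defines "called" for the loss comparisons). Over all 16147 genes tested, 34.7% were called, 17.2% higher and 17.5% lower. The median log2 fold change of the 31 was 0.99, against 0.01 over all genes. Medium and culture batch cannot be told apart. The labels only number the replicates, and the study describes them as independent experiments.

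**Figure D1:**
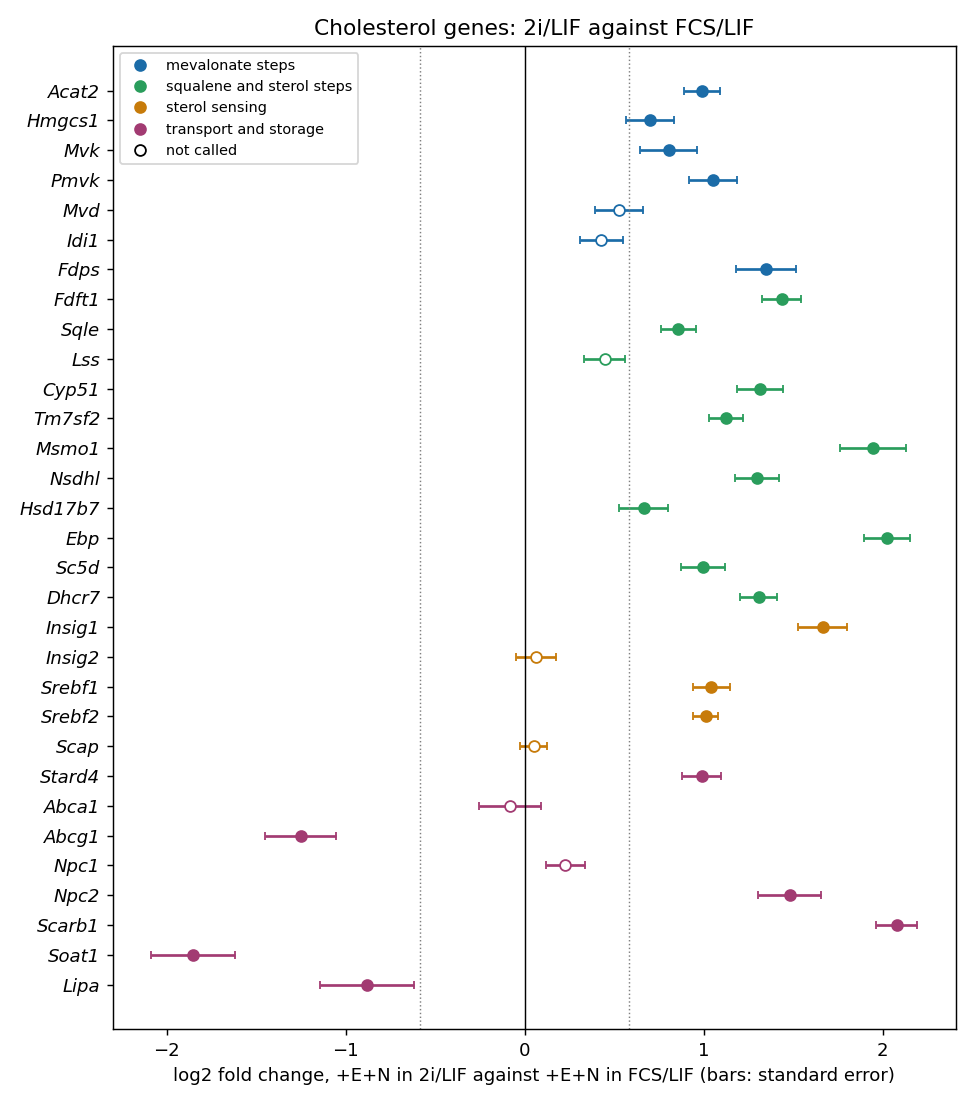
log2 fold change of each cholesterol gene in +E+N cells, 2i/LIF (3 libraries) against FCS/LIF (2 libraries), with the standard error as bars. Filled points were called, open points were not, dotted lines mark a fold of 1.5, and colours give the role. All 18 synthesis enzymes lie to the right of 0, while transport genes lie on both sides, from −1.85 (Soat1) to 2.08 (Scarb1).

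Of the mevalonate enzymes 5 of 7 rose. Fdps, which makes farnesyl diphosphate, was at 137 and 99.4 CPM in FCS/LIF and at 343, 269 and 292 CPM in 2i/LIF, and rose by 1.35 ± 0.17 (log2, standard error; adjusted p = 2.897e-06, edgeR). The 2 sets of libraries did not overlap. Pmvk, phosphomevalonate kinase, was at 30.3 and 23.8 CPM and at 58.4, 50.6 and 59.0 CPM (log2 fold change 1.05 ± 0.13). Acat2 (0.99), which condenses acetyl-CoA, Mvk (0.81), mevalonate kinase, and Hmgcs1 (0.70), the synthase of HMG-CoA, were higher as well. Mvd, the decarboxylase, and Idi1, the isomerase, were at 0.53 and 0.43, with adjusted p of 0.0025 and 0.0054 but folds under 1.5. Idi1 shows a limit of the unit: its mean went from 157 to 211 CPM, while its TPM (abundance scaled by transcript length) were 85.0 and 90.2.

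Of the squalene and sterol enzymes 10 of 11 rose, the largest share of any role. Ebp, the sterol isomerase, was at 14.3 and 15.3 CPM in FCS/LIF and at 62.4, 55.7 and 62.3 CPM in 2i/LIF, 2.02 ± 0.13 higher on the log2 scale (adjusted p = 9.832e-10, edgeR). Msmo1, a sterol methyl oxidase, was at 48.9 and 55.6 CPM and at 196, 193 and 216 CPM, 1.95 ± 0.19 higher. Both sets of libraries were clearly apart, with the lowest 2i/LIF library above 3 times the highest FCS/LIF library for each. The next steps in size were Fdft1 (1.44), which forms squalene, Cyp51 (1.31), the lanosterol demethylase, Dhcr7 (1.31), the last reductase, Nsdhl (1.30), a decarboxylating dehydrogenase, and Tm7sf2 (1.13), a sterol reductase. Sc5d (1.00), a desaturase, Sqle (0.86), which makes the squalene epoxide, and Hsd17b7 (0.66), a keto-reductase, rose less. Lss, which closes the rings of lanosterol, was at 71.0 and 74.2 CPM and at 103, 90.6 and 104 CPM, and at a log2 fold change of 0.45 ± 0.12 was under the fold limit.

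Of the sterol-sensing genes 3 of 5 rose. Insig1, itself a target of SREBP, was at 58.5 and 55.4 CPM in FCS/LIF and at 203, 172 and 167 CPM in 2i/LIF (1.67 ± 0.14, adjusted p = 2.119e-08, edgeR). Srebf2, which mainly drives cholesterol synthesis, was at 194 and 190 CPM and at 393, 390 and 379 CPM (1.01 ± 0.07). Srebf1, more often tied to fatty acid synthesis, was at 52.7 and 47.6 CPM and at 114, 101 and 95.3 CPM (1.04 ± 0.10). For these 3 genes the 2i/LIF libraries lay above the FCS/LIF libraries without overlap. Insig2 and Scap were not called, at 0.06 ± 0.11 and 0.05 ± 0.08. In TPM the mean of Insig2 was lower in 2i/LIF (14.6 against 20.1), so its direction depends on the unit.

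Transport and storage genes were split, with 3 higher, 3 lower and 2 not called of 8. Scarb1, a receptor that takes up cholesterol from high-density lipoprotein, was at 22.7 and 20.9 CPM in FCS/LIF and at 93.1, 95.5 and 87.3 CPM in 2i/LIF, the largest rise of the 31 (2.08 ± 0.12, adjusted p = 2.377e-10, edgeR). Npc2, which binds cholesterol in the lysosome, was at 91.9 and 86.8 CPM and at 311, 227 and 210 CPM (1.48 ± 0.18), and Stard4, a cytosolic sterol carrier, rose by 0.99 ± 0.11. Npc1, the membrane protein to which Npc2 hands cholesterol, was at 0.23 ± 0.11 and was not called.

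The genes that were lower in 2i/LIF were Soat1, Abcg1 and Lipa. Soat1, the acyltransferase that makes cholesterol esters, was at 36.1 and 36.5 CPM in FCS/LIF and at 7.86, 11.1 and 11.3 CPM in 2i/LIF (−1.85 ± 0.23, adjusted p = 3.606e-06, edgeR). On log2(TPM + 1) with limma the Soat1 difference was −0.93, with an adjusted p of 0.0415, and was not called. Abcg1, a sterol exporter, was at 17.1 and 17.9 CPM and at 7.32, 8.02 and 6.75 CPM (−1.25 ± 0.20), while the other LXR-driven exporter, Abca1, was at 24.7 and 20.6 CPM and at 23.6, 20.6 and 19.9 CPM (−0.08 ± 0.17). Lipa, the lysosomal acid lipase, was at 4.10 and 5.55 CPM and at 1.57, 2.53 and 3.79 CPM (−0.88 ± 0.26), and its call was lost in 10 of 20 fits that each left out 1 library, among them FCS/LIF +E+N replicate 2 (−0.66) and 2i/LIF +E+N replicate 1 (−0.61). Leaving out FCS/LIF +E+N replicate 2 also ended the calls of Mvk (0.70) and Hsd17b7 (0.61).

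The difference between media was not limited to control cells. Between the −E groups 25 members were called (22 higher, 3 lower), of which 22 were among the 24 called in +E+N, against 38.8% of all genes. Between the −N groups 20 were called (18 higher, 2 lower; 31.6% of all genes), all of them among those 24, and between the −E−N groups 18 (16 higher, 2 lower; 35.0% of all genes), 16 of them among those 24. The median log2 difference was 0.84 for −E, 0.71 for −N and 0.61 for −E−N. These comparisons were added after the data had been seen, and come from the same fit over 20 libraries. For 18 of the 31 genes all 12 libraries of 2i/LIF lay above all 8 of FCS/LIF, and for Abcg1 all lay below (15.8% and 15.3% of all tested genes). The 18 were 3 mevalonate enzymes (Acat2, Hmgcs1, Fdps), 9 squalene and sterol enzymes (all but Lss and Hsd17b7), Insig1, Srebf1, Srebf2, Stard4, Npc2 and Scarb1. In TPM the counts were 17 above and 2 below. As a ratio, the widest gap was that of Ebp, whose highest FCS/LIF library was at 20.8 CPM and lowest 2i/LIF library at 55.7 CPM.

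**Figure D2:**
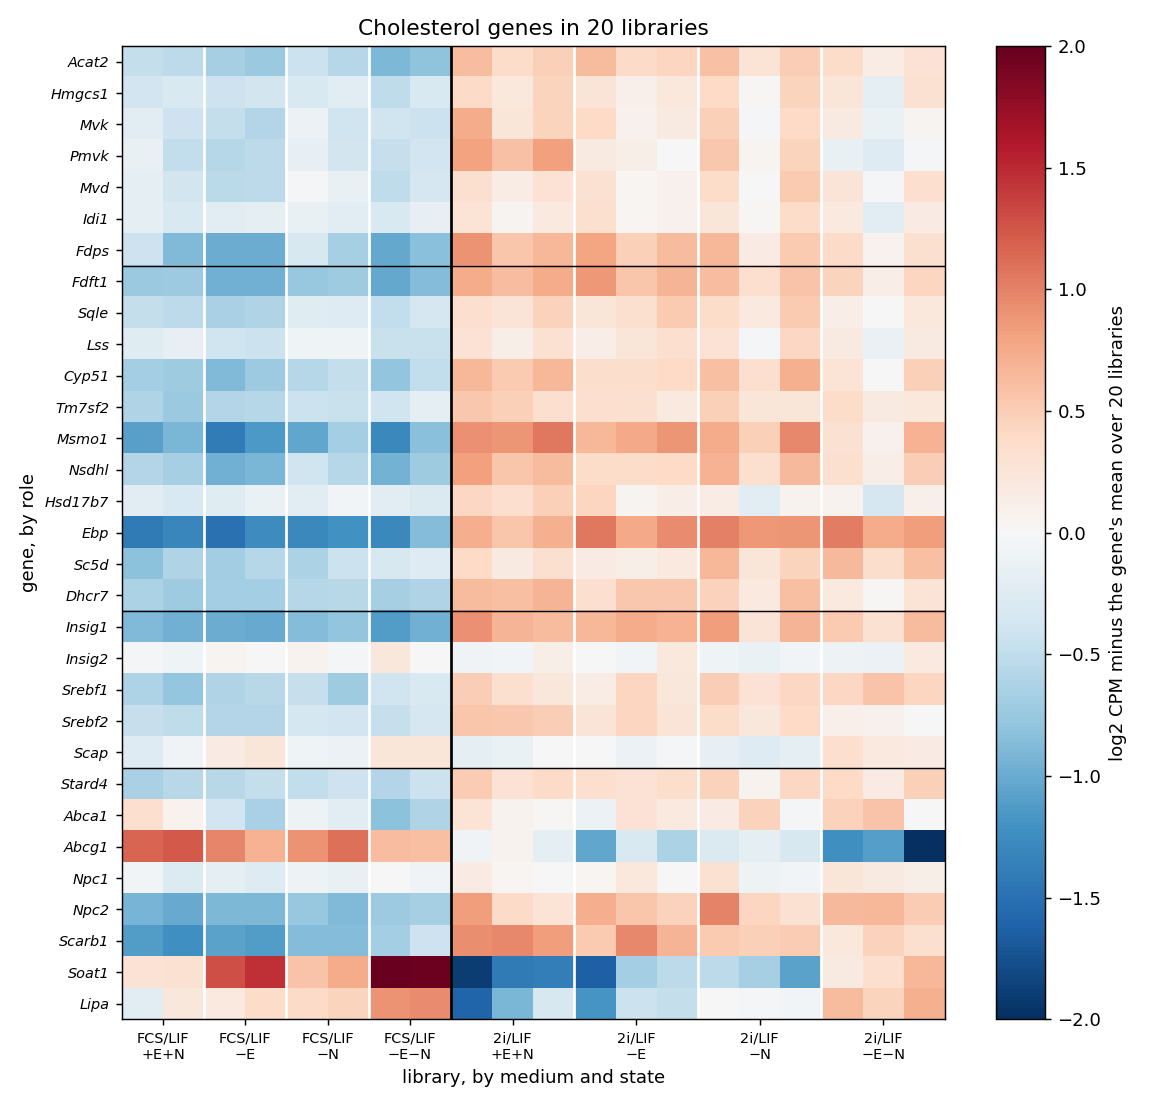
log2 CPM of each cholesterol gene in each of the 20 libraries, minus the mean of that gene over all 20, with libraries in columns by medium and state and genes in rows by role (mevalonate, squalene and sterol, sensing, transport). The blue left part (FCS/LIF) and red right part (2i/LIF) of most rows meet at the black line between media, with the reverse for Abcg1, whose 8 FCS/LIF libraries are its highest. Values beyond 2 in either direction take the end colour, and Soat1 and Lipa vary with state within each medium.

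Summed over genes, the mevalonate enzymes were at 648 to 706 CPM in +E+N in FCS/LIF and at 1094 to 1309 CPM in 2i/LIF, the squalene and sterol enzymes at 459 to 463 and 1014 to 1114 CPM, and the sensing genes at 352 to 360 and 704 to 766 CPM. In the 3 depleted states of 2i/LIF the summed squalene and sterol enzymes ran from 765 CPM (−E−N) to 1102 CPM (−N), above the highest FCS/LIF library, at 524 CPM. Cell-type markers also differed between media: of 10 tested endoderm markers 9 were lower in 2i/LIF, and of 5 tested neural markers 4. Of 7 trophectoderm markers 3 were lower and 1 higher, and of 6 ESC markers 2 were lower and 1 higher. Of 6 tested fibroblast markers 2 were lower, and of 3 tested mesoderm markers 1 was higher. Their part in the difference was not tested.

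**Figure D3:**
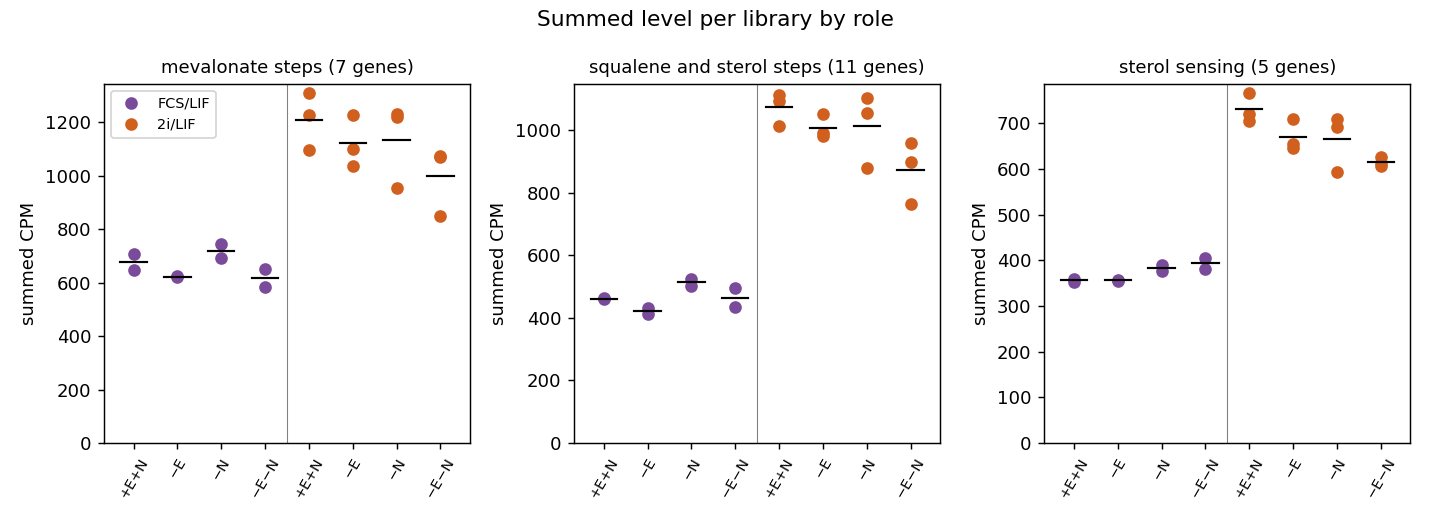
Summed CPM per library of the mevalonate (7 genes), squalene and sterol (11 genes) and sterol-sensing (5 genes) groups, by state within FCS/LIF (purple, 2 libraries per state) and 2i/LIF (orange, 3 libraries per state). Points are libraries, bars are means, and each axis starts at 0. In each panel every 2i/LIF library lies above every FCS/LIF library, and within 2i/LIF the −E−N mean is the lowest.

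Per length, Fdps ranked first in both media and Hmgcs1, Acat2 and Srebf2 ranked 3 to 5. Between them the order changed, with Idi1 at rank 2 in FCS/LIF and 7 in 2i/LIF, and Msmo1 at 8 and 2. In FCS/LIF +E+N the highest mean TPM was that of Fdps (141), then Idi1 (85.0), Hmgcs1 (77.1), Acat2 (61.8) and Srebf2 (57.7), and the lowest were Abca1 (2.83) and Lipa (2.05). In 2i/LIF +E+N Fdps was again highest (347), followed by Msmo1 (139), Hmgcs1 (122), Acat2 (120) and Srebf2 (111). In 2i/LIF the TPM of Msmo1 and Hmgcs1, of Hmgcs1 and Acat2, and of Acat2 and Srebf2 overlapped across their 3 libraries. Counts of Fdps are less certain than others, because 26.7% of its exonic bases are shared with Gm43738 on the same strand, and 12.1% of those of Tm7sf2 are shared with Vps51. On the opposite strand, exons overlap 18.3% of Fdft1, 13.2% of Scap and 12.1% of Hmgcs1, where the libraries were stranded but the quantification options listed in the study's methods name no strand setting.

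The next comparisons asked what loss of Esrrb, of Nr5a2 or of both did within each medium. The single and double losses of a medium are set against the same +E+N libraries, so they are given side by side. In FCS/LIF, 2 of 31 genes were called in −E (5.76% of all 15636 genes tested), none in −N (0.173%) and 5 in −E−N (18.8%). In 2i/LIF, 1 was called in −E (1.55% of 14355), none in −N (3.65%) and 4 in −E−N (18.6%). With 16.1% and 12.9% of the members called in −E−N, the shares were near or below the background. In −N 6 members in FCS/LIF and 8 in 2i/LIF had an unadjusted p under 0.05, and DESeq2 also called none. The share of all genes at that unadjusted limit was not computed, so these counts have no background beside them. None of the 18 synthesis enzymes was called in FCS/LIF, and only Pmvk was in 2i/LIF. All other calls were transport and storage genes.

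**Figure D4:**
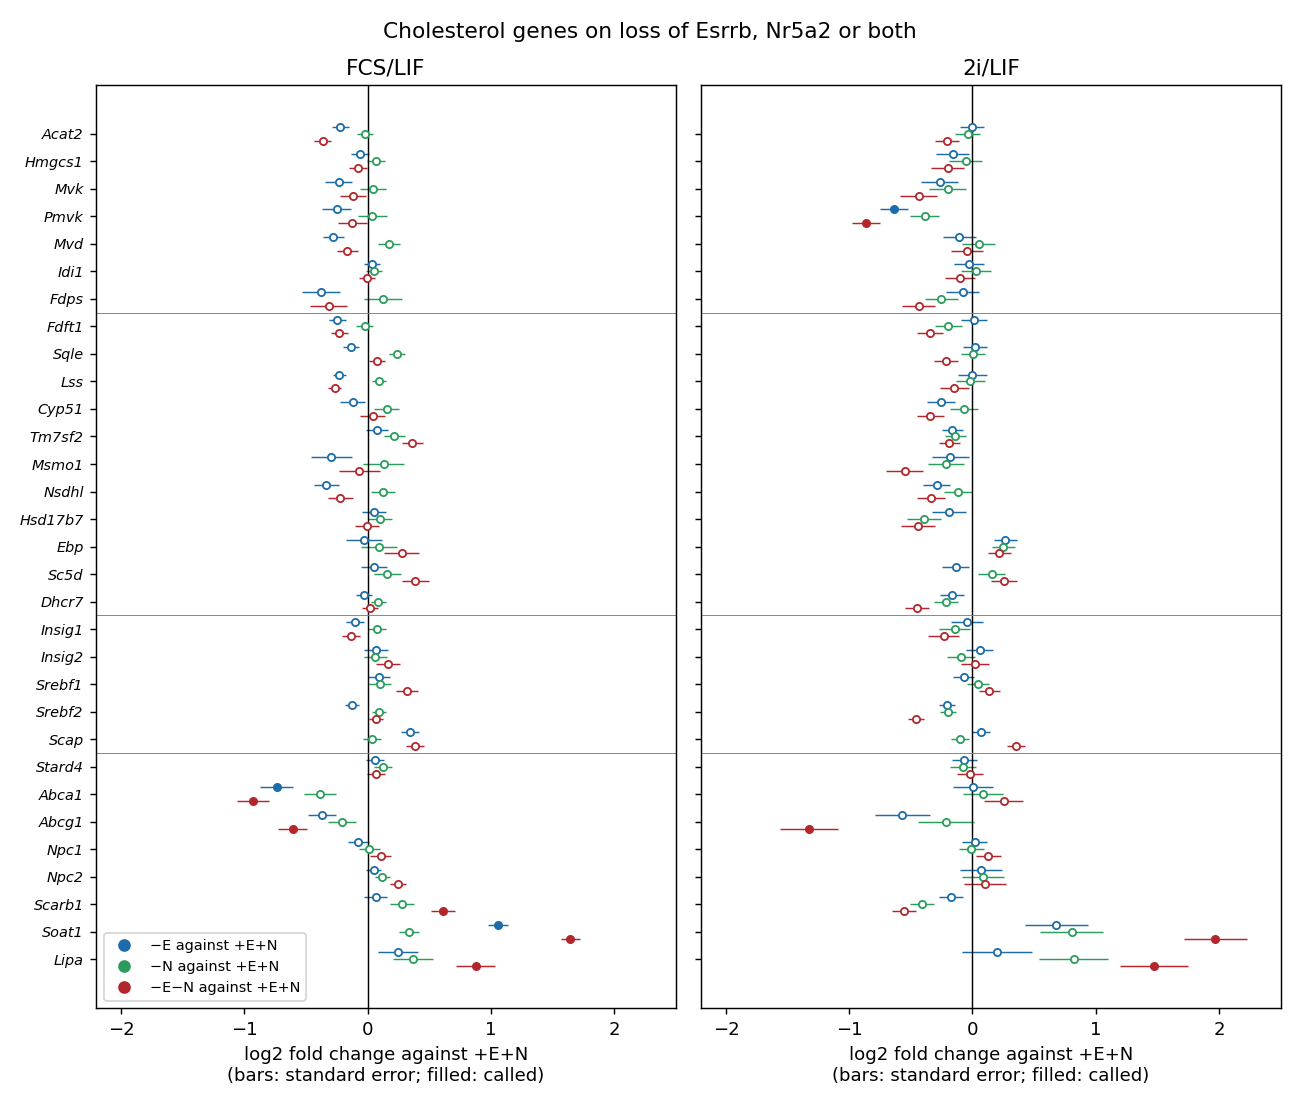
log2 fold change against +E+N of each cholesterol gene in −E (blue), −N (green) and −E−N (red), in FCS/LIF (left) and 2i/LIF (right), with standard errors as bars and called values filled. Genes of synthesis and sensing lie within 1 log2 unit of 0, and the filled points are Abca1, Abcg1, Scarb1, Soat1 and Lipa on the left and Pmvk, Abcg1, Soat1 and Lipa on the right. Scarb1 lies right of 0 in FCS/LIF −E−N and left of 0 in 2i/LIF −E−N.

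Soat1 (chr1:156424525-156474331, minus strand, mm10) was higher on double loss in both media. In FCS/LIF it was at 36.1 and 36.5 CPM in +E+N, at 71.98 and 81.1 for −E, at 43.6 and 49.4 for −N and at 115 and 115 for −E−N. The order of the states was without overlap, −E−N above −E above −N above +E+N. Relative to +E+N, the log2 estimate was 1.06 ± 0.08 for −E (adjusted p = 6.935e-05, edgeR), 0.34 ± 0.08 for −N (0.0758, not called) and 1.65 ± 0.08 for −E−N (2.193e-06). In 2i/LIF Soat1 was at 7.86, 11.1 and 11.3 CPM in +E+N, at 9.50, 18.4 and 20.5 for −E, at 20.6, 18.5 and 13.96 for −N and at 33.4, 37.2 and 46.7 for −E−N. There −E overlapped with +E+N and with −N, and −E−N lay above all. In 2i/LIF the estimates were 0.68 ± 0.26 for −E and 0.81 ± 0.26 for −N, neither called, and 1.97 ± 0.26 for −E−N (adjusted p = 7.02e-05, edgeR).

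Soat1 was also the single member called when −E−N was compared with each single loss in FCS/LIF, at 1.31 ± 0.08 against −N (1 of 31 called, 10.1% of all genes) and 0.59 ± 0.08 against −E (1 of 31, 5.05%). The second of these sat at the fold limit: it was not called with DESeq2 (0.58), and was lost without −E replicate 1 (0.49), −E−N replicate 1 (0.56) or −E−N replicate 2 (0.57). In 2i/LIF it was 1.17 ± 0.25 against −N and 1.29 ± 0.25 against −E. The former was lost without any of the 3 −N libraries (1.02 to 1.29), +E+N replicate 2 (1.17) or −E−N replicates 2 (1.19) and 3 (1.01). On log2(TPM + 1) with limma, Soat1 in 2i/LIF was at 1.14 in −E−N, with an adjusted p of 0.0329, and at −0.12 in −E, so that its calls in that medium rest on counts and not on length-scaled values.

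Lipa (chr19:34492318-34527474, minus strand) was higher on double loss in both media as well, from a low level. In FCS/LIF it was at 4.10 and 5.55 CPM in +E+N and 8.85 and 9.14 CPM in −E−N (0.88 ± 0.16, adjusted p = 0.002165, edgeR), with −E at 5.46 and 6.14 CPM, overlapping +E+N, and −N at 6.18 and 6.46 CPM. In 2i/LIF it was at 1.57, 2.53 and 3.79 CPM in +E+N, 2.11, 3.52 and 3.43 for −E, 4.79, 4.61 and 4.60 for −N and 7.42, 6.496 and 7.77 for −E−N. The −E−N libraries lay above those of every other state, and −N above −E and +E+N. Its rise in −E−N was 1.47 ± 0.28 against +E+N and 1.27 ± 0.28 against −E, and its estimate in −N, 0.82 ± 0.28, was not called. The FCS/LIF call was lost without +E+N replicate 1 (0.69), −E−N replicate 1 (0.88) or −E−N replicate 2 (0.84), and the call against −E in 2i/LIF without −E replicate 1 (1.08), −E−N replicate 1 (1.25) or −E−N replicate 3 (1.21).

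**Figure D5:**
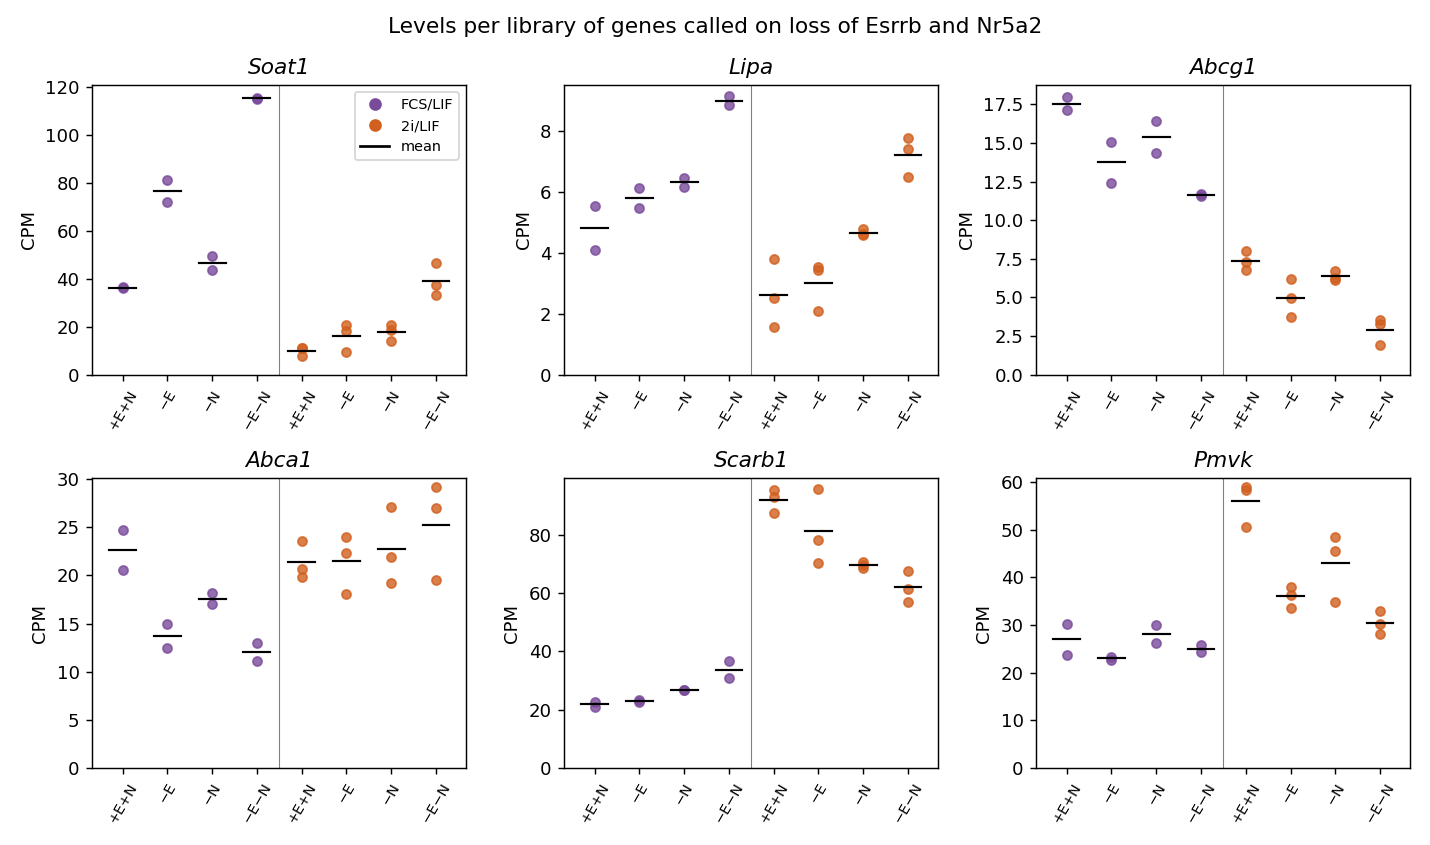
CPM per library of Soat1, Lipa, Abcg1, Abca1, Scarb1 and Pmvk in the 4 states of FCS/LIF (purple, 2 libraries each) and 2i/LIF (orange, 3 libraries each), with points for libraries, bars for means and axes that start at 0. Soat1 and Lipa are highest in −E−N of each medium, Abcg1 is lowest there, Abca1 is lowest in FCS/LIF −E−N only, and Scarb1 and Pmvk have their highest level in 2i/LIF +E+N.

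Abcg1 (chr17:31057675-31117988, plus strand) was lower on double loss in both media and Abca1 (chr4:53030787-53159895, minus strand) in FCS/LIF. Abcg1 was at 17.1 and 17.9 CPM in +E+N and 11.7 and 11.6 CPM in −E−N in FCS/LIF (−0.61 ± 0.12, adjusted p = 0.002949, edgeR), and at 7.32, 8.02 and 6.75 CPM and 3.25, 3.57 and 1.89 CPM in 2i/LIF (−1.33 ± 0.23, adjusted p = 0.000646). The −E−N libraries lay below +E+N in both media, and in 2i/LIF −E (3.71, 6.22 and 4.95 CPM) lay between. Its estimates in −E were −0.37 ± 0.12 in FCS/LIF and −0.57 ± 0.23 in 2i/LIF, neither called. Against −N in 2i/LIF (6.28, 6.71 and 6.10 CPM) it was −1.11 ± 0.23, which with Soat1 made 2 of 31 called (6.76% of all genes). Against −E, Soat1 and Lipa were called, 2 of 31 (13.1%), and a fit blocked on replicate number added Abcg1, which makes 3. The FCS/LIF call of Abcg1 was lost without any 1 of the 4 libraries compared (−0.63 to −0.57), and its call against −N without any of the 3 −N libraries, +E+N replicate 2, or −E−N replicates 1 or 3 (−1.20 to −0.89).

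Abca1, which loads cholesterol onto apolipoproteins, was at 24.7 and 20.6 CPM in FCS/LIF +E+N, 15.0 and 12.5 for −E, 18.2 and 17.0 for −N and 11.1 and 12.9 for −E−N. The −E and −E−N libraries, which overlapped each other, lay below −N, and −N lay below +E+N. Against +E+N it stood at −0.74 ± 0.13 for −E (adjusted p = 0.005103, edgeR), −0.38 ± 0.13 for −N (not called) and −0.93 ± 0.13 for −E−N (adjusted p = 0.0005756). The −E call was lost without +E+N replicate 1 (−0.60), −E replicate 1 (−0.87) or −E replicate 2 (−0.61), and on log2(TPM + 1) it was −0.33 and not called. In 2i/LIF it was at 23.6, 20.6 and 19.9 CPM in +E+N and 26.97, 29.2 and 19.5 CPM in −E−N, which overlap (0.25 ± 0.16).

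Scarb1 (chr5:125277087-125341094, minus strand) was called in FCS/LIF, at 22.7 and 20.9 CPM in +E+N, 23.4 and 22.7 for −E, 26.8 and 26.8 for −N and 30.7 and 36.7 for −E−N (0.61 ± 0.10 in −E−N, adjusted p = 0.0009419, edgeR). Without +E+N replicate 2 it was 0.55 and without −E−N replicate 2 it was 0.47, both under the fold limit. In 2i/LIF it was at 93.1, 95.5 and 87.3 CPM in +E+N, 70.2, 95.7 and 78.3 for −E, 70.6, 68.7 and 69.7 for −N and 56.9, 67.6 and 61.4 for −E−N. The −N and −E−N libraries lay below those of +E+N without overlap, and the estimates were −0.41 ± 0.10 and −0.55 ± 0.10, under the fold limit though the adjusted p in −E−N was 0.0006716 (edgeR). Without −E−N replicate 2 (−0.63) or +E+N replicate 3 (−0.59) the double loss passed both limits.

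Pmvk (chr3:89454541-89469013, plus strand) was the enzyme called on loss. In 2i/LIF it was at 58.4, 50.6 and 59.0 CPM in +E+N, 38.0, 36.3 and 33.6 for −E, 48.5, 34.9 and 45.6 for −N and 30.2, 28.1 and 33.0 for −E−N. All 3 depleted states lay below +E+N without overlap. It fell by 0.64 ± 0.12 in −E (adjusted p = 0.007498, edgeR) and by 0.86 ± 0.12 in −E−N (9.285e-05), and its estimate in −N was −0.39 ± 0.12. The −E call was lost in 9 of 12 fits that each left out 1 library (−0.70 to −0.59 over the 12), and was kept only without −N replicate 1, −N replicate 2 or −E−N replicate 3. In FCS/LIF Pmvk was at 30.3 and 23.8 CPM in +E+N and 24.4 and 25.7 CPM in −E−N, which overlap (−0.13 ± 0.12).

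Without the fold limit, the synthesis enzymes in 2i/LIF −E−N lay mostly on 1 side. At an adjusted p under 0.05 and no limit on the fold, 12 members were lower and 3 higher. These include the 4 already called in −E−N (Pmvk, Abcg1, Soat1 and Lipa). Of all genes 21.0% were lower by that rule. The share of all genes that were higher is not given here, so the 3 have no background beside them. The 12 were 3 of 7 mevalonate enzymes (Pmvk, Fdps, Mvk), 6 of 11 squalene and sterol enzymes (Msmo1, Dhcr7, Hsd17b7, Fdft1, Cyp51, Nsdhl), Srebf2, Scarb1 and Abcg1. Srebf2 was at 393, 390 and 379 CPM in +E+N and 289, 284 and 266 CPM in −E−N (−0.46 ± 0.07, adjusted p = 0.0001505, edgeR), and Dhcr7 at 95.8, 93.9 and 98.4 and at 70.6, 62.9 and 74.9 CPM (−0.45 ± 0.10). Neither pair of groups overlapped. Msmo1 was at 196, 193 and 216 and at 128, 111 and 170 CPM (−0.55 ± 0.15), again with no overlap. Without −E−N replicate 3 it was −0.75 and passed both limits. Ebp, the enzyme with the largest rise between media, had an estimate of 0.22 ± 0.09 and was not among them. The 3 higher genes were Soat1, Lipa and Scap, the last at 40.6, 41.9 and 45.8 CPM and 58.0, 53.0 and 51.3 CPM (0.35 ± 0.07). In FCS/LIF −E−N, Scap was at 0.39 ± 0.07 and Acat2 at −0.37 ± 0.07, with adjusted p of 0.0025 and 0.0022, and both under the fold limit.

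The median log2 fold change of the 31 genes lay between −0.20 and 0.09 in the 6 comparisons with +E+N. In FCS/LIF it was −0.07 for −E, 0.09 for −N (27 of 31 estimates above 0) and 0.02 for −E−N. In 2i/LIF it was −0.07 for −E, −0.08 for −N and −0.20 for −E−N, with 21 of 31 estimates below 0 in each. The median of all genes there was 0.01 for −E and for −E−N and −0.0032 for −N. Summed squalene and sterol enzymes in 2i/LIF were at 1014 to 1114 CPM in +E+N and 765 to 958 CPM in −E−N, without overlap, and in FCS/LIF at 459 to 463 and 435 to 494 CPM.

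Whether the double loss differed from the sum of the single losses was tested as an interaction on the log2 scale. No member passed in FCS/LIF (0.0320% of all genes) or in 2i/LIF (0.307%), by edgeR or by DESeq2. At an unadjusted p under 0.05 there were 0 and 2 members, and the share of all genes at that limit was not computed. The estimates were 0.25 ± 0.11 for Soat1 in FCS/LIF, and in 2i/LIF 0.49 ± 0.35 for Soat1, 0.45 ± 0.39 for Lipa, −0.54 ± 0.32 for Abcg1 and 0.16 ± 0.16 for Pmvk. Leaving out 1 library at a time moved them between 0.13 and 0.35 for Soat1 in FCS/LIF, and in 2i/LIF between 0.22 and 0.69 for Soat1, 0.08 and 0.72 for Lipa, −0.73 and −0.32 for Abcg1, and 0.03 and 0.25 for Pmvk.

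The last comparison asked whether a loss changed a gene differently in the 2 media (adjusted p under 0.01). For −E and for −N no member differed (1.06% and 0.743% of all genes). At an unadjusted p under 0.05 there were 3 and 6 members, and the share of all genes at that limit was not computed. For −E DESeq2 found none, and for −N it called Scarb1. For −E−N 5 members differed, 4 more negative in 2i/LIF (Scarb1, Pmvk, Tm7sf2, Srebf2) and Abca1 more positive, against 13.2% of all genes, so the share of members (16.1%) was near the background. Blocked on replicate number, 9 members differed, against 22.9% of all genes, with Cyp51, Dhcr7, Msmo1 and Sqle added on the negative side. For Scarb1 the difference of differences was −1.20 ± 0.15 (adjusted p = 3.54e-05, edgeR), with a rise in FCS/LIF and lower values in 2i/LIF, as described above. For Abca1 it was 1.15 ± 0.25, and for Pmvk −0.77 ± 0.18. Tm7sf2 was at 26.4 and 24.1 CPM in +E+N and 30.7 and 35.2 CPM in −E−N in FCS/LIF (0.36 ± 0.09), and at 58.6, 56.1 and 50.8 and at 51.7, 45.7 and 46.5 CPM in 2i/LIF (−0.19 ± 0.08), a difference of −0.58 ± 0.13. Srebf2 was at 194 and 190 and at 196 and 213 CPM in FCS/LIF (0.07 ± 0.06), which do not overlap, and its difference between media was −0.56 ± 0.09 (adjusted p = 0.0004323, edgeR). The Pmvk difference was lost without any of 7 libraries (FCS/LIF −E−N replicates 1 and 2 and +E+N replicate 2, 2i/LIF +E+N replicates 1 and 3 and −E−N replicates 1 and 2, −0.78 to −0.60), that of Tm7sf2 without FCS/LIF +E+N replicate 2 (−0.51), FCS/LIF −E−N replicate 2 (−0.45) or 2i/LIF −E−N replicate 2 (−0.53), and that of Abca1 without FCS/LIF +E+N replicate 1 (1.01) or −E−N replicate 1 (1.07). The −N difference of Scarb1 was −0.70 ± 0.15 (adjusted p = 0.0193), and it passed with the replicate number as a block (−0.70).

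Where transport genes were called on double loss, cell-type markers moved too. In FCS/LIF −E−N, 5 of 6 ESC markers fell, and 5 of 7 trophectoderm markers and 2 of 10 tested endoderm markers (12 listed) rose. In 2i/LIF −E−N, 3 of 6 ESC markers fell. Of 5 tested trophectoderm markers (7 listed) 3 rose and 1 fell there, and of 6 tested endoderm markers 2 rose and 1 fell. Fibroblast markers (7 listed) summed to 6.74 to 8.30 CPM in +E+N and 11.3 to 13.7 in −E−N in FCS/LIF (4 of 6 tested rose). In 2i/LIF they summed to 1.86 to 4.18 and 1.91 to 2.97 CPM (1 of 3 tested rose and 1 fell). Mesoderm markers (6 listed) summed to 4.65 to 6.85 and 9.27 to 9.33 CPM in FCS/LIF (1 of 3 tested rose). In 2i/LIF they summed to 11.005 to 14.4 and 3.82 to 4.04 CPM (2 of 3 tested fell). Neural markers summed to 138 to 146 and 114 to 137 CPM in FCS/LIF (1 of 5 tested rose and 1 fell). In 2i/LIF they summed to 36.7 to 54.4 and 12.7 to 17.0 CPM (2 of 4 tested rose and 1 fell). Their part in the values of Soat1, Lipa, Abcg1, Abca1 and Scarb1 was not tested.

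Other genes of lipid metabolism, from lists chosen with earlier results known, were counted beside the members. Between media in +E+N, 10 of 18 fatty acid synthesis genes were higher and none lower (17.2% and 17.5% of all genes), and 15 of the 18 estimates were above 0. Thrsp, a hepatic and adipose regulator of lipogenesis (3.39 ± 0.59), and Scd1, a stearoyl-CoA desaturase (2.58 ± 0.17), rose most. Thrsp was near the floor in FCS/LIF +E+N, at 0.418 and 0.138 CPM (16 and 6 counts). Each FCS/LIF state had a library under 20 counts, so Thrsp entered this test only through 2i/LIF, where it was higher. Its place as the largest rise is therefore no support for a difference between media. Of 22 tested genes of LXR signalling, uptake and intracellular sterol traffic 6 rose and 2 fell, led by Lpcat3 (1.03 ± 0.09), which remodels phospholipids, Nceh1 (0.98 ± 0.13), a cholesteryl ester hydrolase, Gramd1c (−2.91 ± 0.38), a membrane-contact sterol carrier, and Osbpl5 (−1.59 ± 0.31), an oxysterol-binding-protein relative. Of 9 tested genes of sterol and oxysterol metabolism 4 rose, led by Cyp7b1 (1.83 ± 0.29), an oxysterol hydroxylase, and Hsd3b7 (1.52 ± 0.16). Of 11 genes of isoprenoid branches 2 rose, Fntb (0.86 ± 0.08), a farnesyltransferase subunit, and Pdss2 (0.59 ± 0.13), which acts in ubiquinone synthesis, and of 8 genes of SREBP processing 1 fell, the ubiquitin ligase Rnf145 (−0.85 ± 0.15).

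On double loss in 2i/LIF, where 9.06% of all genes rose and 9.56% fell, 6 of 18 fatty acid synthesis genes fell and none rose, with Pnpla3 (−3.64 ± 0.44), a lipid droplet enzyme, and Thrsp (−2.36 ± 0.51) falling most. Of 21 tested uptake and traffic genes 1 rose, Gramd1c (3.05 ± 0.39), and 4 fell, led by Nceh1 (−1.05 ± 0.14) and Gramd1a (−0.87 ± 0.11), and in sterol metabolism Cyp7b1 rose (1.25 ± 0.23) and Hsd3b7 fell (−0.65 ± 0.14). In FCS/LIF −E−N, where 12.4% of all genes rose and 6.40% fell, 1 of 17 tested fatty acid genes rose, Fads2 (0.63 ± 0.09), and 2 fell, Elovl6 (−0.73 ± 0.06) and Acacb (−0.62 ± 0.09). There 4 of 22 uptake and traffic genes rose and none fell, Osbpl5 (1.07 ± 0.25) and Gramd1c (1.04 ± 0.25) the most. None of the 11 isoprenoid genes was called in −E−N of either medium. On loss of Esrrb alone, Fads1 fell (−0.63 ± 0.11) and the receptor Lrp1 rose (1.06 ± 0.20) in FCS/LIF, and Acacb fell (−0.67 ± 0.12) in 2i/LIF. On loss of Nr5a2 alone no gene of these lists was called in either medium.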

How the data were processed

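RNA-seq libraries of 8 groups (2 per state in FCS/LIF, 3 per state in 2i/LIF) were analysed from the table of expected counts and TPM (abundances scaled by transcript length) that the authors deposited. The submitters' processing notes name STAR, RSEM and mm10. The libraries were stranded and poly-A selected. Tool versions and the strand setting of the counting are not given in the sources used here. Expected counts, deposited as RSEM estimates, were rounded to whole numbers. The mm10 coordinates of genes are those of the reference annotation. The 92 ERCC spike-in rows held 0% of counts and were left out, and 0 value columns lacked a sample. Groups were taken from the sample titles.

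Genes with at least 20 counts in every replicate of at least 1 group were tested with edgeR 4.0.16 (R 4.3.3, TMM scaling, quasi-likelihood test, Benjamini-Hochberg adjustment over all genes tested). The 4 states of a medium shared a fit, and comparisons between media used all 20 libraries. Calls needed an adjusted p under 0.01 and a fold over 1.5. Interactions and differences between responses carried no fold limit. Levels are CPM, counts scaled to library size over 20 libraries, and levels of different genes were compared in the authors' deposited TPM. Errors are standard errors of the log2 fold change. Taken over all genes, replicate libraries differed by more than counting error, and 2 or 3 replicates estimate this spread loosely. For members with few counts, counting error is not negligible. Examples are Lipa in 2i/LIF +E+N (49, 68 and 109 counts) and Abcg1 in 2i/LIF −E−N (99, 101 and 56 counts).

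All 31 members are named. Fold changes are printed for called members and, for others, beside a called gene of the same role or where a level is described. Of each other list at most the 2 largest rises and 2 largest falls are named. A result of 1 such list is not reported here. The members and lists were chosen with earlier results of these data known. The code was tested on simulated data.

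Alternatives were DESeq2 1.42.0 and its size factors, no filter, a looser threshold, fits of only the groups compared, limma 3.58.1 on log2 TPM with 1 or 0.1 added, the replicate number as a block, and leaving out each library. Same-numbered libraries deviated together in 2i/LIF in 17 of 18 pairs (correlation over 0.1, median 0.463, lowest 0.0073, in −E−N against +E+N). That lowest value was for replicate 2, while replicates 1 and 3 of these 2 states were at 0.4235 and 0.4018. In 2i/LIF the numbers thus appear to pair libraries, but the main tests compared group means and did not use this pairing. In FCS/LIF there are only 2 numbers, and no pairing was inferred from them. The replicate number entered only as the block among the alternatives, in both media.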

Additional observations from a re-analysis of the deposited data

Results flagged for a closer look

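The response to double loss differed between media for 5 cholesterol genes by a test of the difference itself (quasi-likelihood test of edgeR, Benjamini-Hochberg adjusted). That is 16.1% of the members, near the 13.2% of all genes that passed the same test. Of fits that each left out 1 library, 7 lost the call of Pmvk, 3 that of Tm7sf2 and 2 that of Abca1. The log2 response in 2i/LIF minus that in FCS/LIF was 1.15 for Abca1, −0.56 for Srebf2, −0.58 for Tm7sf2, −0.77 for Pmvk and −1.20 for Scarb1. For Abca1 the fall was seen in FCS/LIF, where −E−N had 11.1 and 12.9 CPM against 24.7 and 20.6 CPM in +E+N. For Pmvk the fall was seen in 2i/LIF, while its FCS/LIF libraries overlapped. Abca1, Srebf2, Scarb1 and Tm7sf2 had estimates of opposite sign in the 2 media, not all of them called.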

How the results depend on the processing

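With 2 or 3 libraries per group, calls near a limit turned on single libraries. Between media in +E+N, 24 members were called, 24 with DESeq2, 25 with the replicate number as a block and 21 on log2(TPM + 1). Leaving out 1 library at a time gave counts of 21 to 25 between media, 1 to 2 for −E and 2 to 5 for −E−N in FCS/LIF, 0 to 1 for −E−N against −E there, and in 2i/LIF 0 to 1 for −E, 4 to 5 for −E−N, 0 to 2 for −E−N against −N and 1 to 2 against −E. For differences between responses it gave 0 to 1 for −N and 3 to 6 for −E−N. At an adjusted p under 0.05 with no fold limit, the FCS/LIF counts were 7 in −E, 13 in −E−N, 11 against −N and 5 against −E, and the 2i/LIF counts 1 in −N, 15 in −E−N, 5 against −N and 9 against −E, with 1 for the −N difference. Many other genes pass this rule too: in 2i/LIF −E−N, 21.0% of all genes were lower by it. Other shares of all genes are not given here. The counts of this paragraph show how calls depend on settings and are no result about the members. On log2(TPM + 1) and log2(TPM + 0.1), 1 member was called in FCS/LIF −E, and in 2i/LIF 0 against −N and 1 against −E. In FCS/LIF −E−N against −E, 0 were called with DESeq2, with its size factors and on log2(TPM + 1), and 2 with no filter or with the replicate block. With no filter 1 was called in 2i/LIF −N (Soat1) and 1 in each single-loss difference (Abca1 in −E, Scarb1 in −N). With only the groups compared, 1 was called against −N in 2i/LIF. DESeq2 and the replicate block called 1 for the −N difference (Scarb1), and the block 9 for the −E−N difference (Abca1 positive, and Cyp51, Dhcr7, Msmo1, Pmvk, Scarb1, Sqle, Srebf2 and Tm7sf2 negative).

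Signs turned only for estimates that were not called. On log2(TPM + 1), Pmvk in FCS/LIF −E−N was 0.0501, Soat1 in 2i/LIF −E −0.12, and between media Insig2 −0.44, Scap −0.14 and Abca1 0.0376. With the replicate block Insig2 between media was −0.0457. Leaving out 1 library, Pmvk in FCS/LIF −E−N ran from −0.29 (without +E+N replicate 2) to 0.0642 (without +E+N replicate 1) and Srebf2 there from −0.0015 (without −E−N replicate 2) to 0.1129. Between media Scap ran from −0.0476 (without FCS/LIF +E+N replicate 1) to 0.1409 and Abca1 from −0.2227 to 0.0496 (without that same library). The cause was not tested. Within 2i/LIF the replicate block added Abcg1 for −E−N against −E and changed no other call. In 2i/LIF the 4 calls in −E−N (Abcg1, Lipa, Pmvk, Soat1) were also the 4 called without all replicate 1 libraries, a choice made after seeing the data.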
